A study of Sus scrofa with 6 samples.

Results

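The genes described here encode the factors that carry out translation and the enzymes that charge transfer RNA. Members were the genes whose only annotated symbol starts with EIF or EEF, leaving out the EIF2AK kinases and EIF1AY, or is an amino acid letter followed by ARS. The rule found 60 of the 6765 genes that the array annotation names singly: 40 by an EIF or EEF symbol and 20 aminoacyl-tRNA synthetases. Most of the 40 are initiation and elongation factors, but EEF1AKMT1, EEF1E1 and EIF4EBP2 are not and entered by symbol. Each gene was represented by its probe set with the highest mean log2 signal, and 56 of the 60 passed the filter on low values and were tested. The other 4 were the synthetase genes HARS, VARS, NARS2 and VARS2.

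Translation starts when eIF2 delivers the initiator tRNA to the small ribosomal subunit, helped by eIF1, eIF1A and the large eIF3 complex. The eIF4 factors bind the cap, unwind the 5′ end and recruit that subunit, and eIF5B then joins the large subunit. Elongation factors of the eEF1 complex bring charged tRNA to the ribosome, and each synthetase loads a given amino acid onto its tRNA. A cleavage-stage embryo lives largely on messenger RNA and protein stored by the oocyte, while a cultured fibroblast makes its own continuously.

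The samples were pig embryos made by nuclear transfer, in which a fibroblast nucleus is placed in an oocyte, and the fibroblasts that supplied the nuclei. Embryos received an antibody to DJ-1, the product of PARK7, which senses oxidative stress, on 2 arrays, or control IgG, also on 2 arrays, and those of 1 further array were left uninjected. They were collected 28 h after transfer, when many had just reached the 2-cell stage, in pools of 23 to 26 embryos. Every embryo pool was a transfer embryo in a slaughterhouse oocyte, so no fertilised embryo serves as a reference, and the donor cells were cultured fibroblasts of an adult Meishan pig (1 array). The replicate number in the sample titles was taken as the trial. By that number all 4 groups had 1 array in trial 1. Only anti-DJ1 and IgG embryos were repeated, with 1 array each of biologically different pools, in trial 2. The embryo RNA stems from slaughterhouse oocytes and the donor RNA from another pig, so the animal and the cell type cannot be told apart, and the labels give no genotype or sex. Pools and arrays, not single embryos, are the replicates.

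The arrays were all scaled to a trimmed mean of about 500.1. All 6 oocyte markers of 9 listed that the array names were above the Tag controls, which are probes with no pig target, on the 5 embryo arrays, and their summed signal was 48598 to 67909 there against 162 in donor cells. Of the 9 fibroblast markers named on the array, VIM, FN1, THY1 and S100A4 were high in donor cells (31965, 24455, 6443 and 1237). COL1A2 stood at 459 in donor cells and 210 to 355 in embryos, and COL3A1 at 584 against 160 to 406. PDGFRB went the other way, at 57.0 against 113 to 194. So did DCN, which lay within the Tag controls in donor cells (5.58) and at 54.7 to 111 in embryos. LUM lay within the Tag controls on every array (1.71 in donor cells). Of the epithelial markers, EPCAM stood at 3128 in donor cells and 3734 to 5574 in embryos, CDH1 at 749 against 3057 to 3694, and KRT18 at 2103 against 2.70 to 12.9. Of the blood and endothelial markers, HBB (922 in donor cells, 982 to 2045 in embryos) was above the Tag controls on all 6 arrays. The same held for PECAM1, at 67.8 against 136 to 320. PTPRC was above them on 2 arrays, and CDH5 was within them on every array. The 10 cumulus and granulosa markers on the array summed to 1231 to 1775 in embryos and 3092 in donor cells. Most of the embryo sum was INHBA (975.3 to 1495), and most of the donor sum was GJA1 (2176), with INHBA at 739. HSD3B1 was above the Tag controls on 5 arrays, FOXL2 on 3, and CYP19A1 and GJA1 on 2, and the other 5 were within the Tag controls on every array. EF1A, a control measured at both transcript ends, gave 3′ over 5′ ratios, which rise when labelled RNA is short, of 23.9 to 30.0 on the embryo arrays of trial 1, 8.20 and 9.34 on those of trial 2, and 4.23 on the donor array. The part of these differences in the results was not tested.

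Against donor cells, the translation genes stood lower in embryos in most cases, and a small group stood higher. Of 56 tested members, 47 differed (83.9%, beside 72.9% of all 14399 tested probe sets; limma, adjusted p under 0.05). Of the members, 38 were lower (67.9%) and 9 higher (16.1%), beside 36.5% lower and 36.4% higher among all probe sets. The median log2 change, embryos minus donor cells, was -1.76, beside -0.02 for all tested probe sets. By the fitted change, 34 of the members called lower differed at least 2-fold and 13 at least 8-fold, and by signals over all 5 embryo arrays 32 and 11 did. Among those called higher, 6 differed at least 2-fold and 1, EIF5B, at least 8-fold. The donor cell array was below all 5 embryo arrays for 11 members (19.6%, beside 40.9% of all probe sets) and above all of them for 37 (66.1%, beside 39.4%). Each array received the same amount of RNA, so fewer molecules per cell and a smaller share of the total cannot be told apart.

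**Figure D1:**
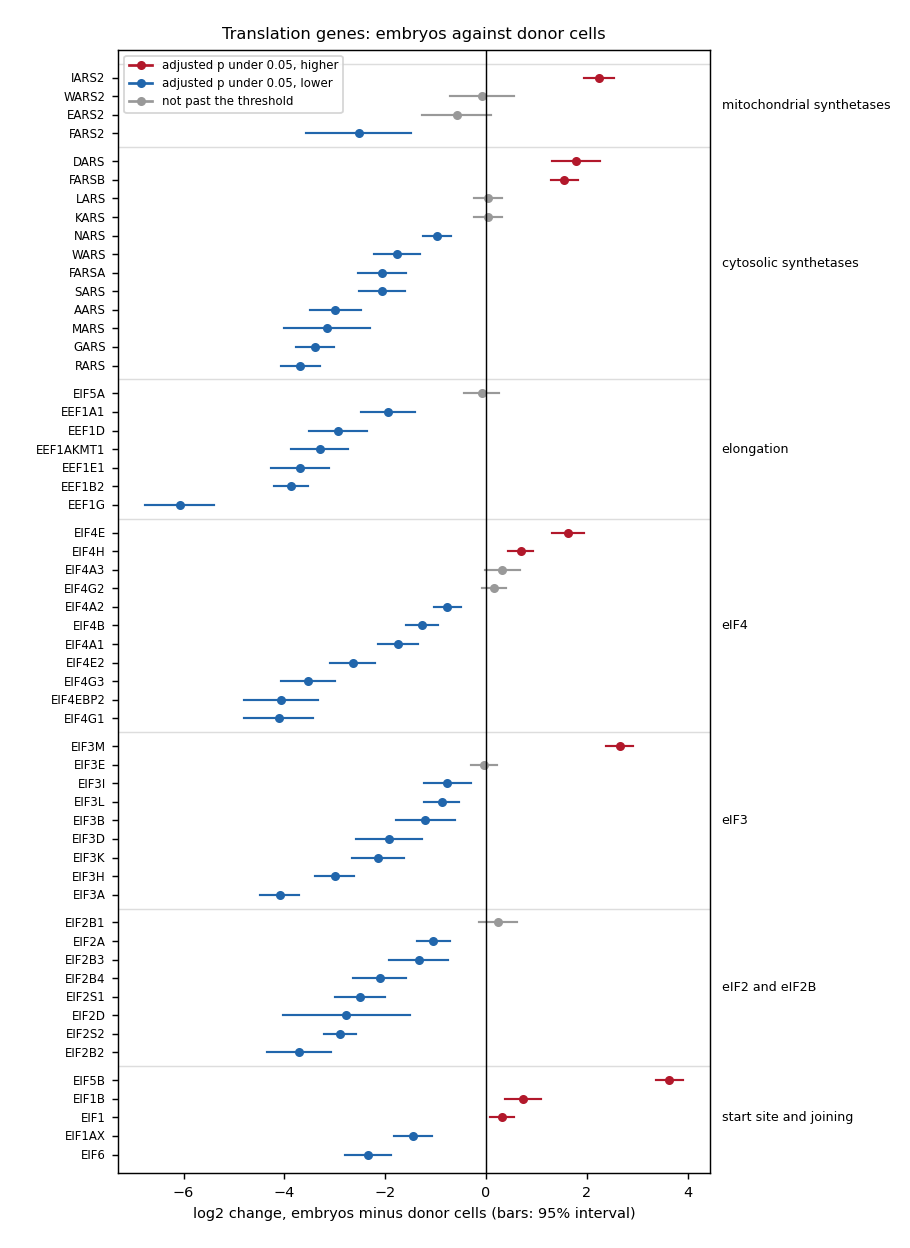
Log2 change of each tested member between embryos and donor cells (x axis) with 95% intervals, grouped by role. Most points lie left of 0, from EEF1G at -6.07, while EIF5B at 3.64 and EIF3M at 2.65 lie farthest to the right.

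These counts rest on 1 donor array, which is assumed to vary like the replicated groups. The donor cells and the non-injected embryos were placed in trial 1 by their replicate number. With the trial as a block the fitted change thus equals the difference between trial 1 arrays, and trial 2 adds to the estimate of the spread. With arrays brought to a common 75th percentile, the median of all probe sets moved from -0.02 to 0.59, the called members became 34 lower and 16 higher, and the median of members minus that of all probe sets was -1.72 against -1.73. Higher calls thus went from 50.0% to 63.2% of calls among all probe sets and from 19.1% to 32.0% among members. Under quantile normalization these shares were 59.7% and 18.2%.

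Factors of start site choice and subunit joining went in both directions: 3 of the 5 were higher in embryos (60%, beside 36.4% of all probe sets) and 2 lower (40%, beside 36.5%). EIF5B, the GTPase that joins the ribosomal subunits, had signals of 15395 and 9499 in anti-DJ1, 14242 and 10667 in IgG and 16901 in non-injected embryos, against 1238 in donor cells. Every embryo array was far above the donor array, a log2 change of 3.64 ± 0.12 (SE, adjusted p = 7.93e-11). This rests on its brightest probe set, since the other 2 stood at 0.22 and 0.44 and did not pass. EIF1, which guards start codon fidelity, was at 11292 to 13592 in embryos and 9904 in donor cells (0.32 ± 0.11, adjusted p = 0.0207), with 2.37 for its second probe set. Its direction turned to -0.11 under quantile normalization, and its call was also lost with no filter on low values, no block or no mean-variance trend. Its close copy EIF1B was at 2626 to 5444 against 1920.0 (0.73 ± 0.16), a call lost with no block and with no mean-variance trend. EIF1AX, the X-linked gene for eIF1A, was at 748 to 938 in embryos against 2423 in donor cells (-1.45 ± 0.17, adjusted p = 7.71e-06). EIF6, which keeps the large subunit from joining too early, was at 193 to 635 against 1125 (-2.34 ± 0.21).

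Genes grouped by symbol with eIF2 and its exchange factor eIF2B were lower in embryos for 7 of 8 members (87.5%, beside 36.5% of all probe sets). None was called higher (beside 36.4%). EIF2S2, the beta subunit of eIF2, had signals of 1152 and 1555 in anti-DJ1, 1191 and 1509 in IgG and 1145 in non-injected embryos, against 8695 in donor cells. The donor array was above all embryo arrays, with a change of -2.90 ± 0.14 (adjusted p = 2.54e-09). EIF2S1, the alpha subunit whose phosphorylation slows initiation under stress, was at 462 to 788 against 3731 (-2.50 ± 0.22). Of the eIF2B subunits, EIF2B2 was at 82.7 to 135 against 1415 (-3.70 ± 0.29), EIF2B4 at -2.11 ± 0.24 and EIF2B3 at -1.33 ± 0.27. EIF2B1, the regulatory alpha subunit, was at 658 to 1222 in embryos and 583 in donor cells (0.24 ± 0.17, adjusted p = 0.24). EIF2A, a separate initiator tRNA carrier, was at -1.04 ± 0.15. EIF2D, which has a related role, was at 10.2 to 64.2 in embryos and 199 in donor cells, with 3 of 5 embryo signals above the Tag controls. Taking the dim arrays at their highest Tag signal, donor cells were at least 3.90-fold higher. It was the 1 tested member that would have failed the filter on its embryo signals alone.

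Subunits of eIF3, the scaffold that holds the small subunit ready, were lower in embryos for 7 of 9 (77.8%, beside 36.5% of all probe sets). EIF3M alone was higher (11.1%, beside 36.4%). EIF3A, the largest core subunit, had signals of 392 and 462 in anti-DJ1, 374 and 423 in IgG and 423 in non-injected embryos, against 6829 in donor cells. The embryo arrays lay close together and far below the donor array (-4.09 ± 0.18, adjusted p = 7.97e-10). EIF3H, a regulatory subunit, was at 599 to 1077 against 5860.4 (adjusted p = 1.34e-08). EIF3M, another subunit of the same complex, had signals of 7970.4 and 5566, 7706 and 5692, and 5382 in the same order, against 1095 in donor cells (2.65 ± 0.12, adjusted p = 1.38e-09). Its second probe set, at 1904 to 3564 against 2906, did not pass the test (-0.07, adjusted p = 0.668). EIF3E was at 7905 to 11932 in embryos and 11982 in donor cells (-0.04 ± 0.12, adjusted p = 0.759). The remaining subunits ranged from EIF3K at -2.14 to EIF3I at -0.77. EIF3I and EIF3L, both called lower, overlapped with the donor array: EIF3I read 196 to 363 in trial 1 and 859.7 and 891 in trial 2 against 463, and EIF3L 757 to 1623 against 1488. The EIF3I call was lost with either other scaling, without the block and without the mean-variance trend. It was also lost with any injected array left out, in fits that had no block.

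Members grouped by symbol with eIF4 were lower for 7 of 11 (63.6%, beside 36.5% of all probe sets) and higher for 2 (18.2%, beside 36.4%). EIF4E, which binds the cap, had signals of 2826 and 1543 in anti-DJ1, 2922 and 1854 in IgG and 2641 in non-injected embryos, against 899.7 in donor cells. All embryo arrays were above the donor array (1.63 ± 0.15, adjusted p = 5.93e-07). EIF4G1, the scaffold that links the cap to the small subunit, was at 49.4 to 118 in embryos and 1864 in donor cells (-4.11 ± 0.31, adjusted p = 1.12e-07). Its relative EIF4G3 was at 164 to 235 against 2322 (-3.53 ± 0.25). EIF4G2, which lacks the cap-binding partner site, was at 15370.1 to 33313 against 23395 and did not pass (0.16 ± 0.11). EIF4EBP2, a repressor that holds EIF4E off the scaffold, was at 56.5 to 93.4 against 1380.1 (-4.07 ± 0.34), but its probe sets disagreed, with tested values from -5.11 to 2.54.

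The eIF4A helicases, close copies of each other whose probe sets may share signal, gave -1.75 ± 0.18 for EIF4A1 (441 to 724 in embryos, 1991 in donor cells) and -0.76 ± 0.12 for EIF4A2 (2991 to 5202 against 7083). EIF4A3, which acts in the exon junction complex, was at 1822 to 2468 against 1766 and did not pass (0.33 ± 0.16, adjusted p = 0.0858). EIF4H, a helper of the helicase, was at 8517 to 11155 against 6474 (0.69 ± 0.11). A dimmer second EIF4H probe set lay within the Tag controls on the embryo arrays and read 191 in donor cells, and averaging both turned the direction to -1.84. EIF4E2, a cap-binding relative that represses translation, was at -2.64 ± 0.21, with its other probe sets at 2.17 and -0.37. EIF4B, another helper, was at -1.27 ± 0.15.

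Of 7 members grouped by symbol with elongation, 6 were lower in embryos (85.7%, beside 36.5% of all probe sets) and none higher (beside 36.4%). Without EEF1E1, a scaffold of the synthetase complex, and EEF1AKMT1, a methyltransferase, 4 of 5 factors were lower, with a median change of -2.93. EEF1G, the gamma subunit of the exchange complex that reloads eEF1A, had signals of 156 and 170.2 in anti-DJ1, 62.4 and 158 in IgG and 93.1 in non-injected embryos, against 6844 in donor cells. The donor array stood 57.3-fold above the geometric mean of the 5 embryo signals. The fitted log2 change, which equals the difference among trial 1 arrays, was -6.07 ± 0.31 (adjusted p = 3.56e-09). EEF1B2, the exchange factor itself, was at 590.1 to 957 against 11207 (-3.87 ± 0.15, adjusted p = 3.51e-10). EEF1D, the delta subunit, was at 88.6 to 327 against 851 (-2.93 ± 0.26).

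EEF1A1, which carries charged tRNA to the ribosome, was at 166 to 221 in embryos and 747 in donor cells by its best probe set outside the controls (-1.94 ± 0.24). The array also carries EF1A as control probe sets, which were not tested. The middle one, the brightest probe set annotated to EEF1A1, read 2297 and 8495 in anti-DJ1, 3110 and 9475 in IgG, 1253 in non-injected embryos, against 21147 in donor cells. The donor array was again highest, and the trial 2 embryo arrays were above those of trial 1. EEF1AKMT1, a methyltransferase of eEF1A, was at -3.30 ± 0.26. EIF5A, which relieves stalled ribosomes, was at 824 to 1627 against 1112 (-0.08 ± 0.16, adjusted p = 0.661), but stood at 0.55 and passed with the common 75th percentile (adjusted p = 0.00646). EEF2 and EIF4E1B were not among the members found.

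**Figure D2:**
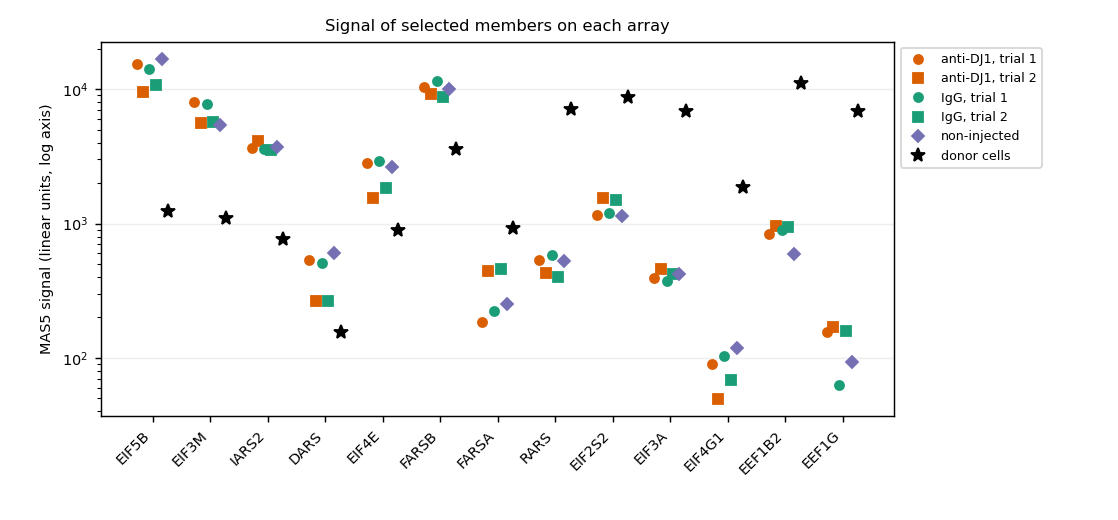
Signal of 13 members (log axis) on each of the 6 arrays, with colours for the groups, circles or squares for trials 1 and 2, and stars for donor cells. The donor star lies under all embryo arrays for EIF5B to FARSB and above them for FARSA to EEF1G.

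Cytosolic synthetases were lower in embryos for 8 of 12 tested members (66.7%, beside 36.5% of all probe sets) and higher for 2 (16.7%, beside 36.4%). The enzyme for phenylalanine is built from a pair of subunits, and their genes went in opposite directions. FARSB, the beta subunit, had signals of 10307 and 9185 in anti-DJ1, 11505 and 8800.3 in IgG and 10086 in non-injected embryos, against 3603 in donor cells (1.56 ± 0.12, adjusted p = 1.49e-07). FARSA, the alpha subunit, read 186 and 442, 225 and 459, and 253 in the same order, against 928 (-2.06 ± 0.22, adjusted p = 2.69e-06). The groups did not overlap for either gene, but the FARSA call was lost without the block for the trial. RARS, for arginine, was at 399 to 579 in embryos against 7106 in donor cells (-3.69 ± 0.18). GARS, for glycine, was at 425 to 752 against 5118 (-3.40 ± 0.17), and AARS, for alanine, at 189.5 to 314 against 1749 (-2.99 ± 0.23). WARS, SARS and NARS were at -1.77, -2.07 and -0.97.

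Several synthetases are held in a large complex with the scaffold proteins AIMP1, AIMP2 and EEF1E1. Of 8 components tested, 4 were lower in embryos, 1 was higher and 3 did not pass, beside 36.5% lower and 36.4% higher among all probe sets. DARS, for aspartate, was the higher one, at 266 to 599.6 against 155 (1.79 ± 0.22, adjusted p = 8.85e-06), and its dimmer probe set at 0.36 did not pass. KARS and LARS, for lysine and leucine, were at 0.04 ± 0.13 and 0.05 ± 0.13. MARS, for methionine, was at -3.15 ± 0.39, with 4 of 5 embryo signals above the Tag controls. EEF1E1 was at 73.2 to 248 against 2041 (-3.69 ± 0.26) and AIMP1 at 1031 to 1286 against 3404 (-1.56 ± 0.15), while AIMP2 was at -0.65 and did not pass.

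Mitochondrial synthetases gave 1 higher and 1 lower of 4 tested (25% each, beside 36.4% higher and 36.5% lower among all probe sets). IARS2, for isoleucine, had signals of 3627 and 4129 in anti-DJ1, 3593 and 3541 in IgG and 3716 in non-injected embryos, against 769 in donor cells (2.24 ± 0.14, adjusted p = 1.68e-08). FARS2, for phenylalanine, was at 31.2 to 65.8 against 273 (-2.52 ± 0.48), with 4 of 5 embryo signals above the Tag controls. WARS2 and EARS2 did not pass, at -0.08 and -0.58. Of the untested members, HARS lay within the Tag controls on all 5 embryo arrays and read 323 in donor cells. With the embryo arrays taken at their highest Tag signals (geometric mean), donor cells were at least 8.98-fold higher. VARS was at 3.57 to 57.4 in embryos and 192 in donor cells, and NARS2 and VARS2 lay within the Tag controls on every array.

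The injected embryos were set against the non-injected array to ask what the injection itself goes with. Of 56 members, 5 differed (8.93%, beside 2.71% of all tested probe sets), 4 of them higher in injected embryos (7.14%, beside 1.87%) and 1 lower (1.79%, beside 0.84%). The median change over members was -0.07, beside -0.01 for all probe sets. EEF1E1, the complex component, had signals of 248 and 139 in anti-DJ1 and 199 and 165 in IgG embryos, against 73.2 in non-injected embryos. All 4 injected arrays were above it (1.54 ± 0.28, adjusted p = 0.0201), with 0.16 for its second probe set. EIF4A2 read 4676 and 4793, 5198 and 5202, against 2991 (0.72 ± 0.13, adjusted p = 0.0201).

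EIF2A read 1604 and 1261 in anti-DJ1 and 1495 and 1261 in IgG embryos, against 940.4 (0.72 ± 0.16, adjusted p = 0.0405), and its second probe set stood at 0.14. KARS read 4206 and 4518, and 3837 and 4084, against 2563 (0.65 ± 0.14, adjusted p = 0.0323). EIF4G2 was the lower one, at 21889 and 16171 in anti-DJ1 and 24280.5 and 15370.1 in IgG embryos, against 33313 (-0.53 ± 0.12, adjusted p = 0.0397). The EIF4G2 call was lost under quantile normalization, with no pseudocount and with no filter on low values. That of EIF2A was lost with no pseudocount, with no filter and with the probe sets of a gene averaged. Averaging also lost the EEF1E1 call, and the calls of EIF4A2 and KARS were lost with no filter. The injected arrays lay on a single side of the non-injected array for all 5, as they did for 19 members above it (33.9%, beside 26.3% of all probe sets) and 11 below it (19.6%, beside 19.9%). The members were called on the mean of both injected groups, which share that array, so the values of IgG and anti-DJ1 embryos are given as a description: 1.53 and 1.56 for EEF1E1, 0.79 and 0.65 for EIF4A2, 0.69 and 0.74 for EIF2A, 0.58 and 0.72 for KARS, and -0.51 and -0.55 for EIF4G2. Set singly against the non-injected array, IgG embryos had 2 members past the threshold (3.57%, beside 1.26% of all probe sets) and anti-DJ1 embryos 3 (5.36%, beside 1.92%).

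**Figure D3:**
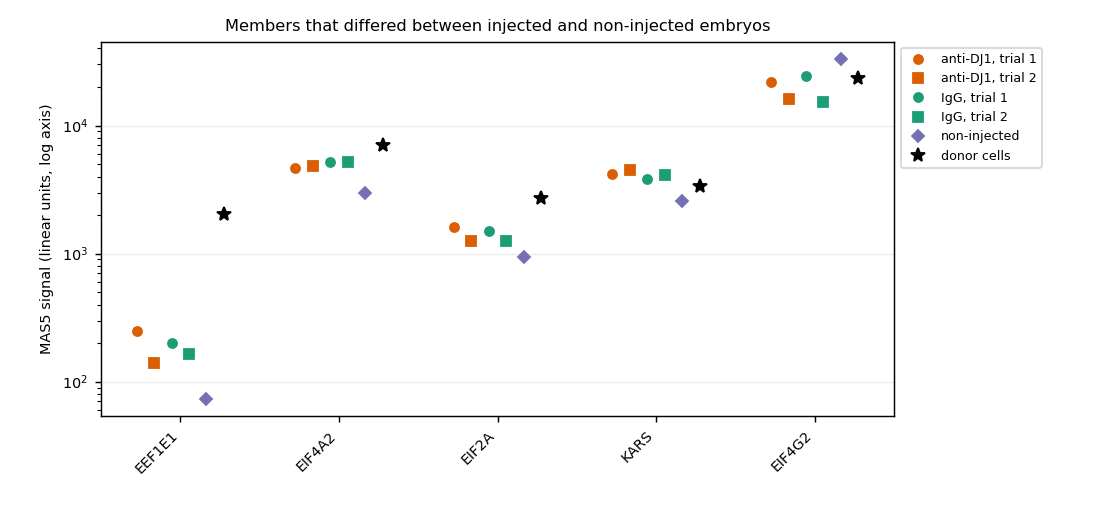
Signal (log axis) of the 5 members that differed between injected and non-injected embryos, on each of the 6 arrays. The non-injected diamond lies under the 4 injected arrays for EEF1E1 to KARS and above them for EIF4G2.

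EIF3M came close in the same direction (0.54 ± 0.13, adjusted p = 0.0523; second probe set 0.81). EEF1B2 was at 0.55 (adjusted p = 0.0892) and EIF5A at -0.65 (adjusted p = 0.0648), while EIF4E stood at 0.12 and EIF2S1 at -0.38. The comparison rests on 1 array: without the block for the trial, or without the mean-variance trend, 0 members and 0 probe sets passed, and 0 members passed when any of the 4 injected arrays was left out, in fits with no block. For EF1A, the 3′ over 5′ ratio of non-injected embryos was 30.0, and that of the trial 1 injected arrays 24.2 and 23.9, and its part in these results was not tested.

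Anti-DJ1 and IgG embryos, the comparison that asks what blocking DJ-1 does, gave no member past the threshold. Of 56 members 0 passed in limma (0%, beside 0% of all probe sets), 1 had an unadjusted p under 0.05 (beside 838 of all probe sets), and the adjusted p ran from 0.853 to 0.9995. The median change was -0.04, beside -0.0054 for all probe sets. The unadjusted 95% interval of a member reached 1.16-fold to 2.14-fold to either side, with a median of 1.29-fold, and the adjusted test asks for larger differences than these. In both trials 12 members were higher (21.4%, beside 24.6% of all probe sets) and 21 lower (37.5%, beside 26.8%) in anti-DJ1 embryos, and 23 moved in opposite directions. None moved at least 2-fold in both trials.

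EEF1G was the member with the unadjusted p under 0.05, at 156 in anti-DJ1 and 62.4 in IgG embryos of trial 1 and 170.2 and 158 in trial 2. Its change was 1.26 in trial 1 and 0.10 in trial 2, or 0.68 ± 0.27 in the fit (95% interval 0.09 to 1.28, adjusted p = 0.853), and the IgG array of trial 1 stood apart from the other 3. EEF1D read 109 against 88.6 and 327 against 224, changes of 0.28 and 0.54. EIF6 read 206 against 261 and 504 against 635, a change of -0.33 in each trial. EIF2S1 read 462 against 778 in trial 1 and 788 against 714 in trial 2, changes of -0.74 and 0.14.

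Of all 14399 tested probe sets, 7073 had fitted changes above 0 between anti-DJ1 and IgG embryos. Among members grouped by symbol with eIF4, 9 of 11 changes were below 0, with a median of -0.14 and a range of -0.32 to 0.20. EIF4B was at -0.25 ± 0.13 (95% interval -0.53 to 0.03), EIF4G1 at -0.32 ± 0.27 and EIF4E at -0.16 ± 0.13. For the 12 cytosolic synthetases the median was -0.15, with 3 above 0, and WARS, for tryptophan, was lowest at -0.35 ± 0.18. All 4 tested mitochondrial synthetases had fitted changes above 0, from 0.12 to 0.39. The highest, FARS2 (95% interval -0.51 to 1.29), read only 31.2 to 58.7 on the injected arrays. It lay within the Tag controls on the IgG array of trial 2. The eIF3 subunits had a median of 0.05 and the eIF2 group 0.01. None of these passed singly, and no test of a group was made. The members of a role were read on the same 4 arrays, so they are not independent of each other.

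**Figure D4:**
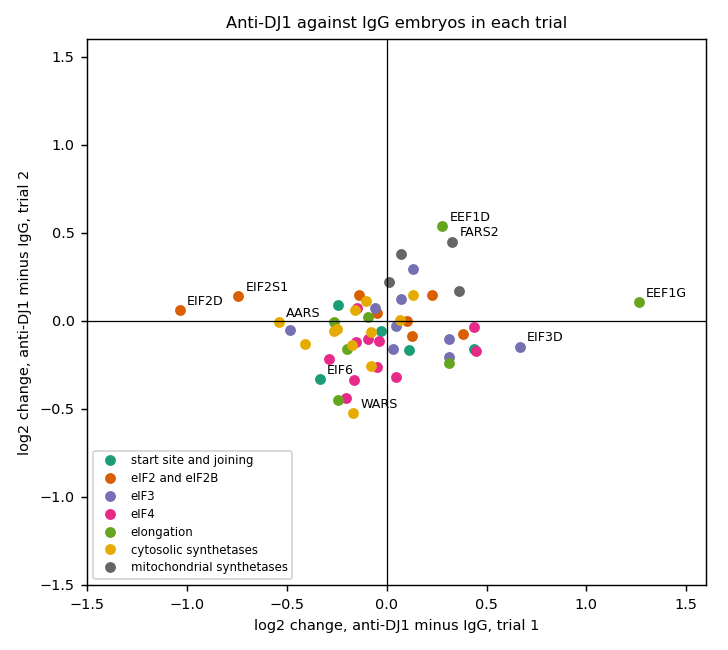
Log2 change between anti-DJ1 and IgG embryos in trial 1 (x axis) and trial 2 (y axis), 1 point per tested member coloured by role. Points gather around 0, and EEF1G is the farthest to the right, at 1.26 in trial 1 and 0.10 in trial 2.

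More members differed between the trials than between the antibodies, in a comparison added after the data had been seen. Between the injected embryos of the trials, 23 of 56 members differed (41.1%, beside 32.3% of all probe sets). Trial 2 embryos were higher for 16 members (28.6%, beside 18.9% of all probe sets) and lower for 7 (12.5%, beside 13.4%). The median change was 0.21, beside 0.14 for all probe sets. Both trial 2 arrays were above both trial 1 arrays for 30 members (53.6%, beside 40.5%) and below them for 14 of 56 (beside 26.1%). Trials are separate batches of embryo pools, and the EF1A 3′ over 5′ ratio also differed between them (24.2 and 23.9 against 8.20 and 9.34). Its part in these differences was not tested.

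Of the eIF3 subunits, 4 of 9 were higher in trial 2 (44.4%, beside 18.9% of all probe sets) and 2 lower (22.2%, beside 13.4%). In either direction 66.7% were called, beside 32.3% of all probe sets. That share was 60% for start site and joining, 50% for mitochondrial synthetases and 25% to 37.5% for the other roles. EIF3I read 196 and 276 in the anti-DJ1 and IgG embryos of trial 1, 363 in non-injected embryos, and 859.7 and 891 in trial 2 (1.89 ± 0.18, adjusted p = 4.28e-05). EIF3D read 129 and 79.5 against 319 and 354 (1.68 ± 0.26), and EIF3K and EIF3L stood at 1.21 and 0.92. EIF3M and EIF3E were lower in trial 2, at -0.48 and -0.50. Both arrays of trial 2 lay on a single side of both injected arrays of trial 1 for each of these.

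Beyond eIF3, EEF1D (1.42 ± 0.23), EIF6 (1.27 ± 0.18), EARS2 (1.14 ± 0.27), FARSA (1.12 ± 0.19), EIF2B3 (1.05 ± 0.23) and EIF5A (0.84 ± 0.14) were higher in trial 2. EIF1B, EIF2B1, EIF2S2, EIF4E2, SARS and WARS2 were higher by 0.39 to 0.78. DARS (-0.96 ± 0.19), EIF4E (-0.76 ± 0.13), EIF4B (-0.75 ± 0.13), EIF5B (-0.56 ± 0.11) and EIF4G2 (-0.55 ± 0.10) were lower. EIF4B read 1661 and 1862 in trial 1 against 931 and 1175 in trial 2 by its brighter probe set, while the dimmer one read 320.0 and 236 against 738 and 853, a change of 1.51 in the other direction.

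**Figure D5:**
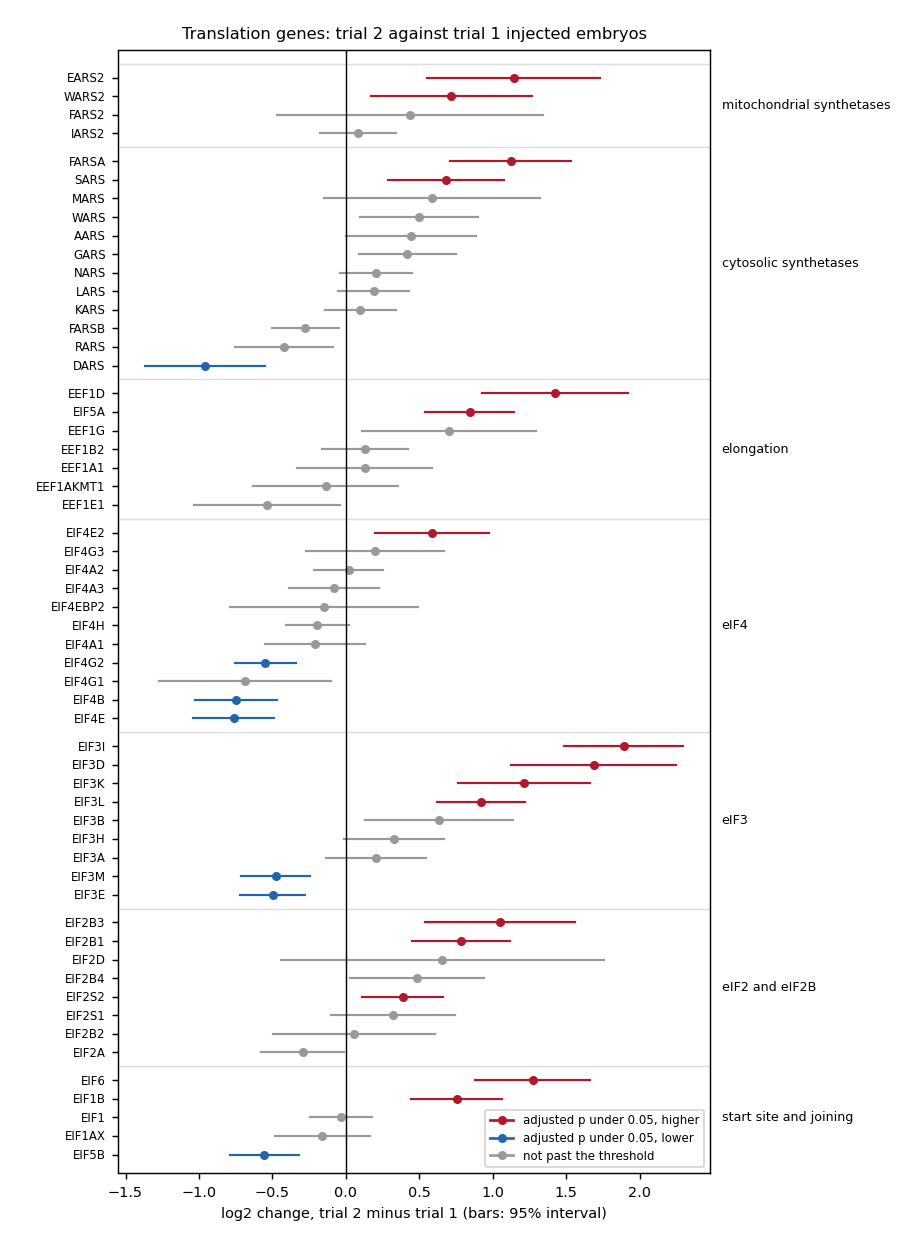
Log2 change of each tested member between the injected embryos of trial 2 and trial 1 (x axis) with 95% intervals, grouped by role. EIF3I at 1.89 lies farthest to the right and DARS at -0.96 farthest to the left.

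A list of 50 genes that regulate translation or respond to its stress was set beside the members, and 21 of the 22 found on the array were tested. In embryos, 12 were lower (57.1%, beside 36.5% of all probe sets) and 4 higher (19.0%, beside 36.4%) than in donor cells. The 12 lower genes include PHGDH, which passed the filter only through its donor signal. PABPC1, the main somatic poly(A)-binding protein, had signals of 79.2 and 127 in anti-DJ1, 113 and 209 in IgG and 104 in non-injected embryos, against 8387 in donor cells (-6.36 ± 0.25, adjusted p = 2.52e-10). PABPC4, a relative, was at 4524 to 5925 against 4773 (0.14, adjusted p = 0.349). MKNK1, a kinase of EIF4E, was at 2670.2 to 3043 against 345 (3.02 ± 0.14). CPEB4, which binds stored messages, was at 786 to 1058 against 152 (2.57 ± 0.18), and PAIP1, a partner of the poly(A)-binding protein, at 5509.6 to 7596 against 1137 (2.47 ± 0.14).

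Among genes of amino acid supply on that list, the serine enzymes PHGDH and PSAT1 were lower in embryos. PSAT1 was at -2.49, and PHGDH, with 2 of 5 embryo signals above the Tag controls, was at least 17.6-fold higher in donor cells when the dim arrays are taken at their highest Tag signal. By its embryo signals alone (15.7 to 53.5, median 19.7) PHGDH would have failed the filter, so it was tested only through its donor signal of 804. ATF4, the stress factor that turns on synthetase genes, was at -1.60 ± 0.16, and DDIT3, its downstream partner, at 0.02. ASNS, the asparagine enzyme, read 2283 and 2087 in anti-DJ1 and 2369.6 and 2169.6 in IgG embryos against 1434 in non-injected embryos (0.70 ± 0.15, adjusted p = 0.0323), and was the 1 gene of the list that passed there. In anti-DJ1 against IgG embryos 0 of 21 passed in limma, with 1 at an unadjusted p under 0.05: PABPC1, at -0.60 ± 0.21 (adjusted p = 0.827), lower in both trials.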

How the data were processed

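Each of 6 samples went on 1 Affymetrix Porcine Genome Array, from 50 ng of total RNA with two-cycle labelling, per the labels' protocols. The authors deposited linear probe set intensities. The submitters' processing notes name MAS5, but the software version and target value are not given in these sources. Of 24123 probe sets, 124 controls were left out of tests, 10069 of the rest had a single symbol, 198 several and 13732 none. Names come from the platform annotation, which can be old, and 59 of 60 members matched a RefSeq gene ID (Sscrofa11.1). Values were set to log2(signal + 4.57), the 10th percentile of all signals, which understates changes of dim probe sets. The upper 60% by mean (14399, mean signal above 39.6) were tested with limma (3.58.1, R 4.3.3; lmFit, eBayes with trend) on the 6 arrays together, with terms for group and trial. Tests were two-sided, with Benjamini-Hochberg adjustment over all tested probe sets and adjusted p under 0.05 as the threshold. The fit has 1 residual degree of freedom, and moderation adds 10.7. Errors are standard errors of the fit. The trial is a block because the labels pair each IgG array with its trial; deviations from the group means of same-trial arrays correlated at r = 0.589 across probe sets. Single arrays are assumed to vary like replicated ones, and the number of arrays limits precision. The fit was tested on simulated data for anti-DJ1 against IgG embryos only. That does not cover the comparisons with a single donor or non-injected array, nor that between trials. Named members followed a rule: up to 10 called in each direction with the largest change per comparison, the extremes of each role, members moving the same way in both trials, and a set of core factors; others were named after their values were seen, to complete a role, complex or count. Members and lists were chosen with earlier results of these data known. Alternatives were other scalings, pseudocounts, filters, no block, no trend, averaged probe sets and each replicate left out, the last in fits with no block. No sequences were used here.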

Additional observations from a re-analysis of the deposited data

How the results depend on the processing

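Between injected and non-injected embryos, where 5 members differed, the number past the threshold was 3 with no pseudocount, 1 with no filter on low values, 8 with the upper 40% of probe sets (adding EEF1B2, EIF3M and EIF5A), 0 with no replicate block and 0 with no mean-variance trend. IgG embryos alone gave 2 and anti-DJ1 embryos alone 3. Leaving out each injected replicate in turn, with no block, gave 0 to 0. For embryos against donor cells, the 47 called members became 34 with no replicate block (34 shared), and 44 to 50 under the alternatives that kept all arrays and the block. The fits with a replicate left out also had no block, so the part of the missing array cannot be told apart from that of the block. In them the median change of members was -1.71 to -1.51, beside -1.76 in the main fit. For anti-DJ1 against IgG embryos, 0 members passed under any alternative run, while with the upper 40% of probe sets 43 probe sets passed, none of them the representative of a member. Against donor cells, 4 of 28 named values turned direction: EIF1 under quantile normalization (-0.11), EIF5A with the common 75th percentile (0.55), and EIF4H (-1.84) and EIF2B1 (-0.71) with all probe sets of a gene averaged. The cause was not tested, except that averaging brings in a second, dimmer probe set. Of named values in the other comparisons, 4 of 12 changed sign under at least 1 alternative for injected against non-injected embryos (EIF1AX, EIF4E, EIF4G1 and EIF5A, none called) and 14 of 16 for anti-DJ1 against IgG embryos, EIF6 and EEF1D among them. Without the replicate block for the trial, 13 calls against donor cells were lost: EIF1, EIF1B, EIF2B3, EIF3B, EIF3D, EIF3I, EIF3K, EIF3L, EIF4A2, EIF4H, EIF6, DARS and FARSA.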

Other observations

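Probe sets of the same gene did not always move together. Of 16 members with several tested probe sets, 3 had changes of opposite sign between embryos and donor cells (EIF3M, EIF4E2 and EIF4EBP2), and in 2 of them, EIF4E2 and EIF4EBP2, probe sets were called in both directions. EIF4E2 read 232 to 419 in embryos against 1669 in donor cells on its brightest probe set, and 297 to 623 against 77.9 on another. EIF4EBP2 read 56.5 to 93.4 against 1380.1, and 53.0 to 128 against 7.19 on another. EIF1 read 9056 to 10349.5 against 1894 on its second probe set, a larger difference than on the first. EEF1A1, EIF1AX, EIF4B, SARS and WARS each had at least 2 probe sets called lower in embryos. Which part of each transcript these probe sets cover was not used here.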
